A study of Mus musculus with 12 samples.

Results

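The 6 subcutaneous Renca tumors described here grew in mice that carried no second tumor in the kidney, and they were chosen as the 6 of 12 tumors whose labels say so. Renca is a renal tumor cell line of BALB/C mice. It was injected under the skin of BALB/C mice and the tumors were taken at day 14. The other 6 tumors of the study, which had an intra-kidney tumor beside them, enter no value given here. Each library holds RNA of a whole tumor, so that malignant cells and the host's stroma (blood vessels, fibroblasts and leukocytes) are mixed. The labels do not say whether the tumors came from separate mice, and no litter, cage or batch is named. Standard deviations (SDs) therefore measure the spread between these 6 samples, which may be technical in part, and within a tumor the error of counting reads is the only one known.

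The deposited values are log2 CPM (read counts divided by a library size and scaled), and each tumor is 1 library. Reads in the table were between 99.2% (tumor 5) and 100.8% (tumor 3) of the library size that the values imply. In tumors 2 and 3 they exceed it, so this size is not the plain total of reads. How it was set is not given in the sources used here. Between 53312559 and 63170906 reads per tumor fell on the 14496 genes of the table. A gene was kept when 3 or more of the 6 tumors reached a log2 CPM of 0, and 14124 genes passed this filter. Their median level was a mean log2 CPM of 4.86. CPM counts reads and so favors long transcripts. Levels of different genes were therefore compared as CPM per kb of exon length, which could be given for 13673 of the genes kept. As RNA of many cell types was pooled in each tumor, fewer cells of a type and less RNA per cell cannot be told apart in any value below.

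Carcinomas of the renal tubule keep part of the program of the epithelium they arise from, such as simple keratins and the transcription factor PAX8, and often gain mesenchymal traits such as vimentin. In a transplanted tumor the malignant cells form the parenchyma, while the host supplies fibroblasts that deposit collagen, endothelium, macrophages and lymphocytes. Activated T cells and natural killer (NK) cells release interferon gamma, which induces antigen presentation and chemokine genes in the cells around them.

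The tumors at the ends of the main axis of variation were tumors 5 and 6. The first principal component of the 14124 genes held 72.7% of the variance, with tumor 5 at -35.1, tumor 6 at 51.0 and the remaining 4 tumors between -13.7 and 3.3. Without tumor 6, the first component still held 54.7%. Tumors 1 and 4 were the closest pair, with 47 genes (0.333%) differing by at least 2-fold, and tumors 5 and 6 were the farthest apart, with 1411 genes (9.99%). No pair was a duplicate: the chi-square statistic of the counts per degree of freedom was 13.4 for the closest pair and 168 for the most distant, where sampling noise alone gives about 1. Tumor 6 was the lowest of the 6 for 26.4% of genes and the highest for 29.7%. Tumor 5 was the lowest for 30.7% and the highest for 25.5%. Tumors 1, 2, 3 and 4 were the lowest for 12.9%, 9.41%, 12.6% and 8.03% and the highest for 10.1%, 11.8%, 10.6% and 12.3%. Tumors 5 and 6 were at the 2 ends, in either order, for 33.3% of genes. For the SDs of single genes and the median SDs of lists that leaving out tumor 6 moves by more than 1.5 times, the value without it is given too.

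Mitochondrially encoded genes and a small number of secreted and lysosomal genes took the largest shares of the reads. The 10 genes with the most reads held 8.01 ± 0.490% of all counts (SD, n = 6), the first 100 held 20.7 ± 0.313% and the first 1000 held 48.5 ± 0.469%. The 23 genes of the mitochondrial chromosome together held 6.53 ± 0.320%, between 5.98% and 6.97% in single tumors. mt-Co1, a subunit of cytochrome c oxidase, had the highest level, from 15251 CPM in tumor 5 to 18269 CPM in tumor 6, with a median of 17008 CPM. Per length it stood at 11012 ± 662 CPM per kb, ahead of mt-Co3 at 9895 ± 567 CPM per kb and mt-Co2 at 8383 ± 185 CPM per kb. All 3 encode core subunits of the same enzyme, and mt-Co2 was the steadiest of them, with an SD of 0.032 on the log2 scale. The genes mt-Atp6, mt-Atp8, mt-Nd2 and mt-Cytb followed, so that the first 7 places per length were mitochondrial.

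Psap was the nuclear gene with the most reads in these tumors. It encodes prosaposin, the precursor of the lysosomal activators of sphingolipid breakdown, and it ranged from 11545 CPM in tumor 5 to 17248 CPM in tumor 3, with a median of 13993 CPM. Its level per length was 5189 ± 826 CPM per kb, the eighth of all genes with a length. Tumors 2 and 3 were the highest for Psap and tumor 5 the lowest, a spread (SD of 0.23 log2) well above the counting error of 0.0016. Spp1 followed at 4745 ± 376 CPM per kb. It encodes osteopontin, a secreted phosphoprotein made by macrophages and by many carcinomas, and it ranged from 7146 CPM in tumor 3 to 8907 CPM in tumor 4, with a median of 7642 CPM. Tumors 5 and 6 were both near the middle for Spp1. Lysosomal proteases were also among the 25 reported genes with the most reads, which stand within the first 26 of the table, with Ctsd (cathepsin D) at 2449 ± 301 CPM and Ctsb (cathepsin B) at 2049.6 ± 54.8 CPM. Ctsb was steady between tumors (SD 0.038 log2), whereas Ctsd ran from 2006 CPM in tumor 5 to 2838 CPM in tumor 6.

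The selenoproteins Selenop, a plasma selenium carrier, and Gpx3, the extracellular glutathione peroxidase that is made mainly by the renal proximal tubule in the healthy body, stood at 1216 ± 148 CPM per kb and 1587 ± 72.0 CPM per kb. Gpx3 differed little between tumors, 2658 to 3036 CPM. Selenop was the lowest in tumor 5 at 2683 CPM, against 3414, 3649.9, 3795, 3371 and 3815 CPM in tumors 1, 2, 3, 4 and 6. The fibrillar collagens Col3a1, Col1a1 and Col1a2 were among the 25 too, and they had the widest spread of these (SDs of 0.66, 0.60 and 0.62 log2). H2-D1, a classical class I heavy chain, and B2m, its light chain, were also in the group, at 960.0 ± 120.3 CPM per kb and 2699 ± 499 CPM per kb. The rest were housekeeping genes of translation, glycolysis, the cytoskeleton and protein folding: Eef1a1, Eef2, Pkm, Actb and Hsp90ab1.

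**Figure D1:**
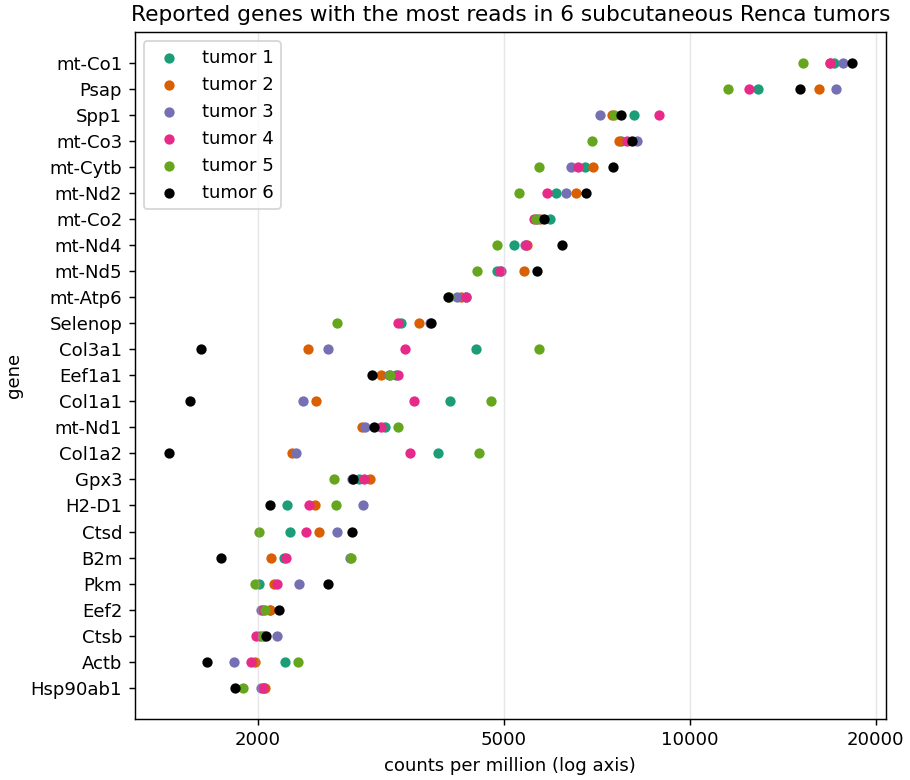
The 25 reported genes with the most reads (vertical axis) against their level in CPM (log axis), 1 point per tumor. The collagens Col3a1, Col1a1 and Col1a2 spread from tumor 6 at the low end to tumor 5 at the high end, while mt-Co2, Eef2 and Ctsb form tight groups.

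The tumors carried part of an epithelial and renal tubule program. The keratins of the epithelial list were steady, but the list as a whole was not: its median SD was 0.23 log2 (0.24 without tumor 6), against 0.11 for all genes, and 2 of 11 members had an SD of at most 0.1, where 45.2% of all genes had one. Of 17 epithelial genes, 11 passed the filter and 5 are not in the table. For 7 of the 11 the lowest tumor was tumor 5, where 30.7% of all genes were the lowest. Krt8 and Krt18, the keratin pair of simple epithelia, led them. Krt8 stood at 965 CPM in tumor 5, a median of 1033 CPM and 1114 CPM in tumor 6, and Krt18 at 360 CPM in tumor 6, a median of 373 CPM and 388 CPM in tumor 4. Both were narrow in range, with SDs of 0.082 and 0.039 log2. Per length Krt8 reached 531 ± 30.2 CPM per kb and ranked 43 of 13673. Cdh1, which encodes E-cadherin, the adhesion molecule of epithelial junctions, was present at 116 ± 17.3 CPM with an SD of 0.23 log2, and the tight junction gene Cldn3 at 109 ± 17.8 CPM with an SD of 0.23. Spint2, a membrane serine protease inhibitor of epithelia, stood at 119.9 ± 10.2 CPM.

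Other epithelial genes were scarce. Epcam, the epithelial adhesion molecule often used to sort carcinoma cells, was at 4.39 ± 0.887 CPM, or 2.0 ± 0.404 CPM per kb. Elf3, an epithelial transcription factor, varied most within the list (SD 0.33 log2), from 6.37 CPM in tumor 5 to 11.8 CPM in tumor 3, with a median of 9.22 CPM. Krt7, Krt19, Grhl2, Ocln and Esrp1 are not in the table, which lists genes with at least 1 CPM in at least 2 of the 12 tumors. Spint1 was in the table but below the filter.

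Of 18 renal tubule genes, 9 passed the filter with a median SD of 0.15 log2 and 0 at or below 0.1, among them lineage factors of the nephron, while most genes of specialized transport are not in the table. Cdh16, which encodes kidney-specific cadherin, was the highest of them, from 826 CPM in tumor 5 to 1251 CPM in tumor 6, with a median of 1029 CPM. On the log2 scale this is a range of 9.69 to 10.29. Pax8, a lineage factor of the nephron, was at 104 ± 10.1 CPM, and Pax2, which acts earlier in the same lineage, at 12.1 ± 1.22 CPM. Aqp1, the water channel of the proximal tubule and of many capillaries, stood at 74.9 ± 12.4 CPM and had the largest SD of the list, 0.24 log2. Its low tumor was tumor 6 and its high tumor was tumor 1, unlike Cdh16. Lrp2, the endocytic receptor megalin, reached 8.75 ± 0.892 CPM. Among the 9 members that are not in the table are Lhx1, the phosphate transporter Slc34a1, Cubn, Umod, Slc12a1, Slc12a3, Slc22a6 and Kl.

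All 11 genes of the mesenchymal tumor cell list were kept, and Vim was higher per length than every epithelial gene kept except Krt8. Vim, the mesenchymal intermediate filament, was at 309.6 ± 27.2 CPM per kb, beside 259 ± 7.10 CPM per kb for Krt18. It ranged from 1365 CPM in tumor 6 to 1699 CPM in tumor 5, with a median of 1417 CPM, with tumors 5 and 6 at the ends and an SD of 0.12 log2. Fn1 (fibronectin) and Twist1, which fibroblasts also express, spread further, with SDs of 0.52 and 0.58 log2 and tumor 6 at the bottom. Of the 11 genes, 8 were the highest in tumor 5 and the lowest in tumor 6, where 16.7% of all genes were. This order was found in 21 of 23 fibroblast and matrix genes and in 0 of 11 epithelial genes. How much of the reads of Vim and the other members came from host stroma was not tested.

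The 17 genes that are recurrently altered in human renal carcinoma, or act in its pathways, all passed the filter and had a median SD of 0.083 log2, against 0.11 for all genes. An SD of at most 0.1 was found for 9 of the 17, where 45.2% of all genes had one. Hif1a and Vhl, a hypoxia-inducible factor and the ubiquitin ligase subunit that marks it for destruction, were at 68.1 ± 4.73 CPM per kb and 15.8 ± 0.452 CPM per kb. Vhl kept to 45.6 to 49.5 CPM. Pbrm1, a chromatin remodeling subunit on the human chromosome arm most often lost in clear cell carcinoma, was at 191 ± 14.6 CPM. Cdkn2a, which encodes the cell cycle inhibitors INK4A and ARF, was well expressed at 155 ± 22.8 CPM per kb, beside 15.6 ± 0.835 CPM per kb for Trp53. Cdkn2a followed the tumor order of Cdh16, with 149 CPM in tumor 5 and 223 CPM in tumor 6. Epas1, the HIF2A gene, which endothelium also expresses, had the largest SD of the list (0.39 log2) and was the lowest in tumor 6.

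**Figure D2:**
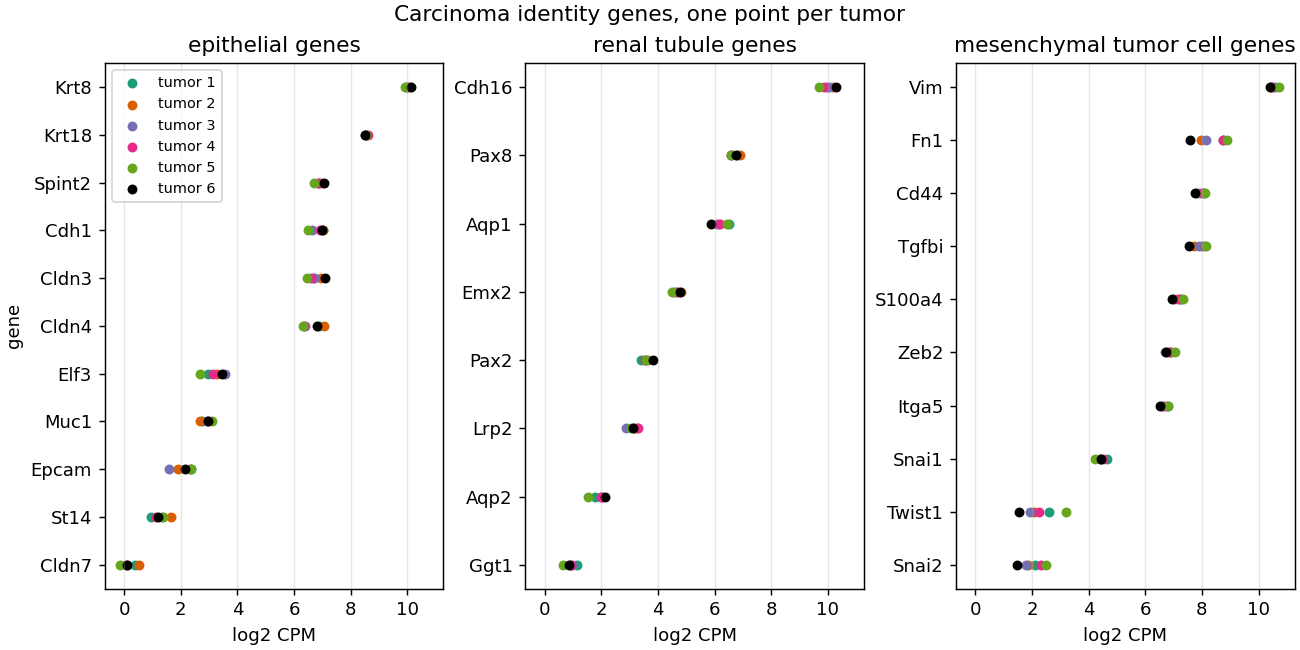
Log2 CPM (horizontal axis) of the epithelial, renal tubule and mesenchymal tumor cell genes that passed the filter and are reported (vertical axis), 1 point per tumor. The points of Krt8, Krt18 and Pax8 lie close together, while those of Fn1 and Twist1 run from tumor 6 at the low end to tumor 5 at the high end.

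The labelled cell type was checked against markers of other tissues. The 13 keratinocyte genes looked for are not in the table. Red cell genes were low, with the beta globin gene Hbb-bs at 13.4 ± 2.70 CPM, a value that is uncertain because the globin genes have near-identical copies. Xist, the RNA of the inactive X chromosome, stood at 331 ± 55.7 CPM, while the Y-linked genes Ddx3y, Eif2s3y, Kdm5d and Uty are not in the table.

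Proliferation genes were high in all 6 tumors and differed between them about as little as genes in general. All 25 were kept, with a median level of 6.55 log2 CPM, against 4.86 over all genes. Their median SD was 0.096 log2, near the 0.11 of all genes. Mki67, the nuclear protein that marks cycling cells, stood at 478 CPM in tumor 5, a median of 569 CPM and 629 CPM in tumor 2. Pcna, the clamp of DNA polymerase, stood at 450.3 CPM in tumor 5, a median of 535 CPM and 604 CPM in tumor 6. Mcm6, a subunit of the replicative helicase, had the largest SD of the list, yet only 0.16 log2. For 23 of 25 genes the lowest tumor was tumor 5, against 30.7% of all genes, and for 16 the highest was tumor 6, against 29.7%. The sizes were small: the list score, which is the mean log2 CPM of its members, ran from 6.70 in tumor 5 to 6.94 in tumor 6.

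Hypoxia and glycolysis genes were mostly the highest in tumor 6. Of 22 kept, 19 had their highest value there, against 29.7% of all genes. In 11 the highest was tumor 6 and the lowest tumor 5, a pattern of 16.6% of all genes. Pkm, which encodes pyruvate kinase, stood at 1979 CPM in tumor 5, a median of 2134 CPM and 2603 CPM in tumor 6. Ndrg1, a hypoxia-induced gene, stood at 1192 CPM in tumor 5, a median of 1539.6 CPM and 2168 CPM in tumor 6. Tumor 6 held the top place in both. Bnip3, a hypoxia-induced regulator of mitophagy, spread more, with 31.9 CPM in tumor 5, 37.9 in tumor 1, 46.4 in tumor 2, 50.1 in tumor 4, 67.5 in tumor 3 and 116 in tumor 6. Slc2a1, the glucose transporter GLUT1, was at 40.0 to 72.8 CPM, and in tumors 1 to 5 it had an SD of only 0.13 log2 against 0.33 with tumor 6. Vegfa, the main angiogenic factor, was at 138 ± 17.3 CPM and highest in tumor 6. Car9, a classical target of hypoxia in renal carcinoma, was low, with a mean of 1.56 CPM, and was the lowest in tumor 6. Ankrd37, a hypoxia-induced gene of low level here (0.485 to 2.11 CPM), had the largest SD of the list. The list score was 6.45 in tumor 5, 6.50, 6.55, 6.59 and 6.72 in tumors 1, 2, 4 and 3, and 7.07 in tumor 6.

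Gapdh gave a low value beside the other glycolytic genes. It stood at 14.0 ± 2.14 CPM or 3.39 ± 0.517 CPM per kb, whereas Tpi1 and Aldoa stood at 264 ± 61.9 CPM per kb and 249 ± 26.7 CPM per kb. The mouse genome holds many processed pseudogenes of Gapdh, and how reads that match several places were counted is not given in the sources used here, so that the level of Gapdh is uncertain.

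Genes of the unfolded protein and amino acid responses were also the highest in tumor 6, in 11 of 13, against 29.7% of all genes. Of these, 8 were the lowest in tumor 5, a pattern of 16.6% of all genes. Hspa5, the endoplasmic reticulum chaperone BiP, was the most abundant at 1976 ± 84.9 CPM and was not among the 11. Atf4, the transcription factor of the integrated stress response, was at 491 CPM in tumor 6 and at 335 to 381 CPM in tumors 1 to 5. Trib3 and Ddit3, both targets of ATF4, were also the highest in tumor 6, with 187 and 86.0 CPM in tumor 6 and medians of 125 and 57.4 CPM. Phgdh, the first enzyme of serine synthesis, was at 348 to 439 CPM.

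Fibroblast and matrix genes held more reads than any other stromal or immune list in the mean of the 6 tumors, and they separated the tumors. In tumors 3 and 6 the macrophage list held more, with 14030 and 12878 CPM against 13185 and 9088 CPM. Spp1, which many carcinomas also make, alone gave 7146 and 7733 CPM of the macrophage sums. In tumor 6 the MHC class I list held more too, at 9231 CPM. The 23 fibroblast and matrix genes together held 1.68 ± 0.613% of the counts. Their sum ran from 9088 CPM in tumor 6 to 25531 CPM in tumor 5, with a median of 15881 CPM. Their median SD was 0.55 log2, and 0.43 without tumor 6, against 0.11 for all genes. Of the 23 genes, 21 were the highest in tumor 5 and the lowest in tumor 6, against 16.7% of all genes. The same tumors stood at the ends of the leukocyte lists below.

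Col1a1 and Col1a2, the chains of type I collagen, and Col3a1 ordered the tumors alike at both ends. Col1a1 was at 4088 CPM in tumor 1, 2484 in tumor 2, 2363 in tumor 3, 3586 in tumor 4, 4776 in tumor 5 and 1555 in tumor 6. Tumors 1, 4 and 5 were high, tumors 2 and 3 intermediate and tumor 6 low. Dcn, the collagen-binding proteoglycan decorin, had the largest SD of the list, 0.81 log2, from 36.3 CPM in tumor 6 to 191 CPM in tumor 5, with a median of 87.6 CPM. Tnc, the provisional matrix protein tenascin C, was at 583 ± 214 CPM. In the wider collagen family, 30 genes were kept, with a median SD of 0.50 log2 (0.38 without tumor 6). Of these, 15 were the highest in tumor 5 and the lowest in tumor 6, against 16.7% of all genes.

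Pericyte and smooth muscle genes had lower levels per length than Col1a1, Col1a2 and Col3a1. Rgs5, a pericyte marker, stood at 90.4 CPM in tumor 3, a median of 109 CPM and 138 CPM in tumor 1. Acta2, the smooth muscle actin of pericytes and activated fibroblasts, stood at 64.5 CPM in tumor 6, a median of 105 CPM and 138 CPM in tumor 5. Tagln, an actin-binding protein of the same cells, was at 75.6 ± 24.4 CPM. The highest in tumor 5 with tumor 6 lowest were 3 of 11 genes, where 16.7% of all genes had this order. For Rgs5, Mcam, Notch3, Cspg4 and Cnn1, the high tumor was tumor 1 and the low one tumor 3.

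Endothelial genes differed less than fibroblast genes. Of 19, 18 passed the filter, with a median SD of 0.30 log2. Pecam1, the endothelial adhesion molecule CD31, stood at 42.8 CPM in tumor 6, a median of 59.1 CPM and 85.2 CPM in tumor 5. Kdr, the VEGF receptor VEGFR2, was at 39.8 ± 10.7 CPM, and Eng, the TGF-beta co-receptor endoglin, at 112 ± 13.2 CPM. Ramp2, a co-receptor of adrenomedullin that is rich in endothelium, went the other way, with its low value in tumor 5 (186 CPM) and its high value in tumor 6 (265 CPM). Kdr, Eng and Pecam1 were all the lowest in tumor 6. Lyve1, a marker of lymphatic endothelium and of some macrophages, was scarce at 0.722 to 3.67 CPM. Vwf, stored in endothelial granules, was at 6.11 ± 1.86 CPM.

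Among leukocyte genes, those of macrophages took the most reads. The 21 macrophage genes held 1.4 ± 0.0960% of all counts, Spp1 included, and the 15 T cell genes 0.0101 ± 0.00447%. Spp1 alone gave 7820 of the 14010 CPM of the macrophage list in the mean of the tumors. Lyz2, the macrophage lysozyme, stood at 1482 ± 223 CPM per kb, Apoe, the lipid carrier of tissue macrophages, at 476 ± 37.9 CPM per kb, and C1qa, a chain of complement C1q, at 412 ± 62.6 CPM per kb. Ptprc, the pan-leukocyte phosphatase CD45, stood at 136 CPM in tumor 6, a median of 205 CPM and 266 CPM in tumor 5. Tumor 6 was the low end and tumor 5 the high end, and the other 4 lay between 185 and 225 CPM. Of the 14 pan-leukocyte genes, 13 had that order, against 16.7% of all genes.

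The spread of the macrophage genes was the smallest of the leukocyte lists, with a median SD of 0.23 log2. Lyz2 ranged from 1587 CPM in tumor 6 to 2327 CPM in tumor 3, with a median of 1938 CPM. Mrc1, the mannose receptor, kept to 359 to 432 CPM, and Cd68, a lysosomal glycoprotein, to 213 to 246 CPM, with tumor 6 the highest for Cd68. Nos2, the inducible nitric oxide synthase, was the exception within the list: its SD was 0.66 log2, with tumors 3 and 5 at 18.9 and 27.6 CPM and the other 4 between 8.80 and 11.6 CPM. Arg1, the arginase of alternatively activated macrophages, was below the filter, with at most 41 reads (tumor 6).

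Monocyte and dendritic cell genes spread more than macrophage genes. Ccr2, the receptor that brings monocytes out of the marrow, was at 197 to 353 CPM with an SD of 0.29 log2 (0.18 without tumor 6). Ly6c2, the surface marker of inflammatory monocytes, was the most variable of them at 8.16 CPM in tumor 6 and 83.9 CPM in tumor 5, with the other 4 between 17.7 and 27.2 CPM. Ly6c2 has a close paralog, so its level is uncertain. Itgax, the integrin CD11c, was at 48.7 ± 11.7 CPM, and Irf8, a transcription factor of dendritic cells and monocytes, at 76.3 ± 22.8 CPM. Clec9a, a receptor of cross-presenting dendritic cells, was at 2.50 CPM in tumor 6 and at 5.80 to 9.38 CPM in tumors 1 to 5. Siglech, a marker of plasmacytoid dendritic cells, had the largest SD of the list, 0.93 log2. Of 13 dendritic cell genes, 11 were the highest in tumor 5 and the lowest in tumor 6, against 16.7% of all genes.

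T cell genes were low in level and wide in spread. All 15 were kept, with a median level of 2.08 log2 CPM and a median SD of 0.87, which was 0.48 without tumor 6. In all 15 tumor 5 was the highest and tumor 6 the lowest, an order found in 16.7% of all genes. Cd8a, the co-receptor of cytotoxic T cells, was at 8.76 CPM in tumor 1, 7.57 in tumor 2, 11.5 in tumor 3, 6.96 in tumor 4, 15.6 in tumor 5 and 1.85 in tumor 6. In reads that is 98 in tumor 6 and 993 in tumor 5, so the gap was larger than counting error (an SD of 0.081 log2 against the observed 1.06, which was 0.48 without tumor 6). Cd3e, a chain of the T cell receptor complex, stood at 1.21 CPM in tumor 6, a median of 4.26 CPM and 7.40 CPM in tumor 5. Cd4 stood at 6.98 CPM in tumor 6, a median of 15.2 CPM and 26.6 CPM in tumor 5, but macrophages and dendritic cells can express it too.

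Genes of cytotoxic and regulatory lymphocytes had tumors 5 and 6 at the same ends. Tumor 5 was the highest and tumor 6 the lowest in 14 of 14 cytotoxic lymphocyte and NK genes and in 6 of 6 regulatory T cell genes. This order was found in 16.7% of all genes. Gzmb, the granzyme of activated killer cells, had an SD of 1.34 log2, with 18 reads in tumor 6 and 378 in tumor 5. Gzma, a second granzyme, was at 2.69 CPM in tumor 6, a median of 8.04 CPM and 25.1 CPM in tumor 5. Ncr1, an NK cell receptor, ranged from 1.55 CPM in tumor 6 to 14.2 CPM in tumor 5, with a median of 4.81 CPM, and Ccl5, a chemokine of activated T and NK cells, from 7.84 CPM in tumor 6 to 33.6 CPM in tumor 5, with a median of 16.3 CPM. Foxp3, the master regulator of regulatory T cells, stood at 1.13 CPM in tumor 6, a median of 3.70 CPM and 7.35 CPM in tumor 5. Ctla4, an inhibitory receptor of the same cells, had the largest SD of its list, 1.36 log2 and 0.91 without tumor 6. The cytotoxic list reached an SD of at least 1 in 7 of 14 genes, against 0.864% of all genes. Without tumor 6, 0 of the 14 reached it, and the median SD was 0.62 in place of 1.00.

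B cell and neutrophil genes were often below the filter or not in the table. Of 11 B and plasma cell genes, 5 passed the filter, and Ms4a1, Tnfrsf17 and Pou2af1 are not in the table. Jchain, the joining chain of secreted antibodies, had another tumor order than the T cell genes. It was at 27.4 CPM in tumor 1 and 21.3 in tumor 5, at 2.41, 7.12 and 6.64 in tumors 2, 3 and 4, and at 0.797 in tumor 6. Tumor 1 was the highest here, and the SD of 1.92 log2 remained at 1.42 without tumor 6. Pax5 and Cd79a, also in this list, spread less (SDs of 0.30 and 0.22 log2) and were the highest in tumor 2. Of the 5 genes kept, 2 were the highest in tumor 5 and the lowest in tumor 6, against 16.7% of all genes. For neutrophils, 8 of 15 genes are not in the table. S100a8 and S100a9, the subunits of calprotectin that fill the neutrophil cytosol, were at 3.06 ± 1.4 CPM per kb and 10.4 ± 4.03 CPM per kb, and Csf3r, the receptor of granulocyte colony-stimulating factor, at 7.87 ± 1.62 CPM per kb. Tumor 5 was the highest and tumor 6 the lowest for each of them. This order was found in 4 of the 7 neutrophil genes kept, against 16.7% of all genes. Mmp9, another member, was the highest in tumor 4 (16.9 CPM) and the lowest in tumor 6 (10.75 CPM). Of the mast cell genes Kit alone was kept, at 5.82 ± 1.8 CPM, and Kit is expressed by other cells too.

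**Figure D3:**
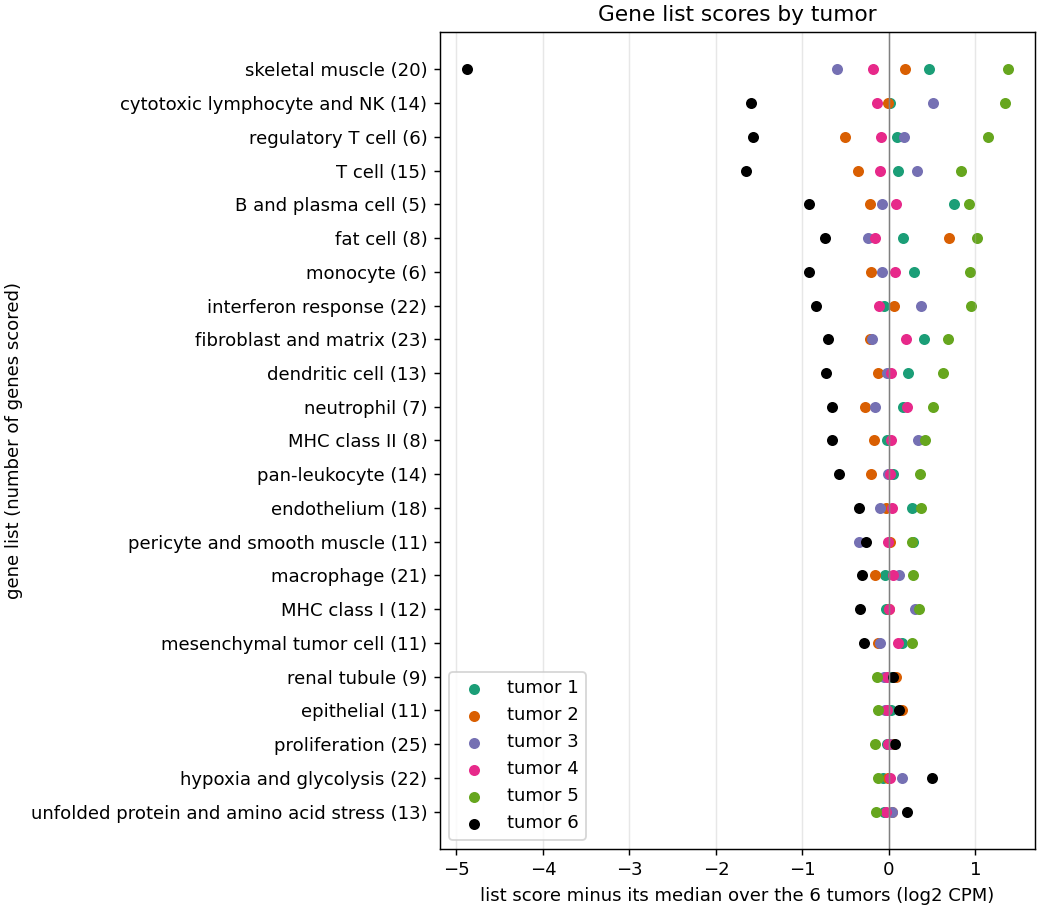
Score of each gene list, as the mean log2 CPM of its members minus the median of the 6 tumors (horizontal axis), by list (vertical axis, number of genes in parentheses), 1 point per tumor. Tumor 6 lies far to the left for skeletal muscle and lymphocyte lists and to the right for hypoxia and glycolysis, and tumor 5 lies on the opposite side.

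Interferon response genes stood at the same ends of the tumor order as the lymphocyte genes. All 22 were kept, with a median level of 6.14 log2 CPM and a median SD of 0.61 (0.50 without tumor 6). In 19 the highest was tumor 5 and the lowest tumor 6, against 16.7% of all genes. Their promoters are shown because most of these genes had the same tumors at their ends and the family is known for an element, the interferon-stimulated response element (ISRE), here searched on both strands as GAAA, any 2 bases and GAAA again. Of the 22 genes, 18 have an entry in the RefSeq promoter table (build GRCm38.p6), and 12 of the 18 (66.7%) hold the element in the 250 bases before the start, against 3.46% of 27025 genes. The gamma-activated site TTCNNNGAA, searched in the same way, was in 3 of 18 (16.7%) against 8.13%. The 150 bases before the start are given for 3 of them, 5′ to 3′ on the gene's strand, with the matches in capitals. A match says only that these letters are present.
Gbp2, chr3:142620513-142620662, plus strand: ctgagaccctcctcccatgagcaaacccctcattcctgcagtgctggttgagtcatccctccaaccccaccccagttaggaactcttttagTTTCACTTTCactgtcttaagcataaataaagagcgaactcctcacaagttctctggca
Ifit1, chr19:34640739-34640888, plus strand: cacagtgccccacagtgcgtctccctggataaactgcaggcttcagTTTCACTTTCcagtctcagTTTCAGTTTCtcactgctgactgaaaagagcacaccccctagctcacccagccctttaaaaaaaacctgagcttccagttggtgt
Isg15, chr4:156200819-156200968, minus strand: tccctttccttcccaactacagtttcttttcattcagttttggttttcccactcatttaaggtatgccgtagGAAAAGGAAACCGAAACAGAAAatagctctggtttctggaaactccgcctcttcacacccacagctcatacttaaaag
Gbp2 and Ifit1 hold the element on the opposite strand, with 1 match in Gbp2 and 2 in Ifit1. Isg15 holds 3 matches that overlap in a single run.

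These 3 genes did not share a tumor order below the top. Gbp2, a GTPase strongly induced by interferon gamma, was at 157 CPM in tumor 1, 185 in tumor 2, 320.4 in tumor 3, 178 in tumor 4, 344 in tumor 5 and 91.8 in tumor 6, so that tumors 3 and 5 stood together above the rest. Ifit1, a sensor of viral RNA induced by type I interferon, was at 29.0 CPM in tumor 3, 67.5 in tumor 5 and 18.8 to 30.7 in the other 4. Isg15, a ubiquitin-like modifier, was at 49.6 CPM in tumor 3, 119.7 in tumor 5 and 40.3 to 58.9 in the other 4. Tumor 3 was thus near tumor 5 for Gbp2 and among the other tumors for Ifit1 and Isg15.

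Other members divided in the same way. Cxcl9, a chemokine induced by interferon gamma, was at 213 CPM in tumor 3 and 233 in tumor 5, with 34.4 in tumor 6. Ido1, the tryptophan-degrading enzyme, was at 4.82 and 6.09 CPM in those 2 tumors and between 0.366 and 1.34 CPM in the other 4. Its SD was 1.58 log2 and 1.35 without tumor 6. Irf7, the transcription factor that amplifies type I interferon, was at 89.2 CPM in tumor 3 and 259 in tumor 5. Cd274, the ligand PD-L1, was the steadiest member (SD 0.21 log2), from 65.8 CPM in tumor 6 to 96.3 CPM in tumor 2, with a median of 84.7 CPM. Ifng itself, which encodes interferon gamma, was low, with 29, 67, 96, 40, 135 and 13 reads in tumors 1 to 6.

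Antigen presentation genes were the lowest in tumor 6 without exception. This held for all 12 class I genes kept and for all 8 class II genes, where 26.4% of all genes were the lowest in tumor 6. H2-Aa, the alpha chain of the I-A molecule, was at 749 CPM in tumor 1, 637 in tumor 2, 929.6 in tumor 3, 766 in tumor 4, 1078 in tumor 5 and 421 in tumor 6. Tumors 3 and 5 were again the upper pair. Ciita, the transactivator of the class II genes, was at 96.0 ± 23.2 CPM and was lowest in tumor 6. Class I genes had a smaller spread, a median SD of 0.24 log2 against 0.38 for class II (0.18 and 0.25 without tumor 6). H2-D1 ranged from 2096 CPM in tumor 6 to 2957 CPM in tumor 3, with a median of 2446 CPM, and Tap1, the peptide transporter, had the largest SD of the list at 0.48 log2. The H2 genes are close paralogs of each other, so their single levels are uncertain.

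Skeletal muscle genes had the largest spread of any list. All 20 were kept, with a median SD of 2.27 log2, and 0.80 without tumor 6. Every one of the 20 was the highest in tumor 5 and the lowest in tumor 6, against 16.7% of all genes. As many as 18 had an SD of at least 1, against 0.864% of all genes. Without tumor 6, 1 of the 20 had one. Summed over the list they took 732 CPM in tumor 5, a median of 306 CPM and 52.5 CPM in tumor 6. Acta1, the actin of skeletal muscle fibers, was at 79.1 CPM in tumor 1, 75.5 in tumor 2, 45.2 in tumor 3, 50.8 in tumor 4, 147 in tumor 5 and 1.28 in tumor 6. Tumor 5 was the highest, and tumor 6 stood far below the rest, with 68 reads against 2566 to 9340. Myh4, the fastest myosin heavy chain, had 8 reads in tumor 6 and 986 to 5703 in the rest. Ckm, the muscle creatine kinase, had 12 reads in tumor 6, 902 in tumor 3 and 3920 in tumor 5. Eno3, the muscle enolase, which other tissues express too, was the least variable, at 44.3 to 68.7 CPM.

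Promoters of Acta1 and Myh4 are shown as the members of this most variable group that hold a CArG box, the element of serum response factor. The E-box CAGCTG, a palindrome that muscle regulatory factors of the MyoD family can bind, was in 9 of the 15 muscle genes with an entry (60.0%) within 250 bases before the start, against 14.7% of 27025 genes. In the other lists searched, the share with an E-box ran from 11.1% (1 of 9 epithelial genes) to 33.3% (3 of 9 pericyte and smooth muscle genes). The CArG box was in 2 of 15 (13.3%) against 1.62%. Both strands were searched and the motifs did not overlap in these sequences, which are the 150 bases before the start with the matches in capitals.
Acta1, chr8:123894776-123894925, minus strand: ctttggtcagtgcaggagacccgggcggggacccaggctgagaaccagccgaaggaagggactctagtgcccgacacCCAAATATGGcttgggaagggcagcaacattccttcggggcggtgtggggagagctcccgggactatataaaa
Myh4, chr11:67237662-67237811, plus strand: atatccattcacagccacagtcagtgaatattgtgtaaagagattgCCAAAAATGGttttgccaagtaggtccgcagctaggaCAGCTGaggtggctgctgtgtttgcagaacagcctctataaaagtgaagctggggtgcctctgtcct
The window of Acta1 shows the CArG box, and its E-box lies further from the start than the bases printed. The window of Myh4 shows the CArG box first and the E-box second.

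Fat cell genes were mostly low, and 8 of the 14 in the list were kept. Of these, 5 were the highest in tumor 5 and the lowest in tumor 6, against 16.7% of all genes. Adipoq, which encodes the fat hormone adiponectin, stood at 0.872 CPM in tumor 6, a median of 1.4 CPM and 4.24 CPM in tumor 5, and Fabp4, a fatty acid carrier of fat cells, macrophages and capillaries, at 6.44 CPM in tumor 6, a median of 14.4 CPM and 31.2 CPM in tumor 5. Car3, a carbonic anhydrase of fat and slow muscle, had the largest SD of the list, 1.07 log2. Tumors 2 and 5 were the upper pair for Adipoq and for Car3. Plin4, a lipid droplet protein, had the highest level but did not separate the tumors (173 to 218 CPM). All 20 muscle genes were thus the lowest in tumor 6, and that tumor was also the lowest in fibroblast, T cell and interferon scores and the highest in the hypoxia score. The part of muscle and fat next to the tumors in these differences was not tested.

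**Figure D4:**
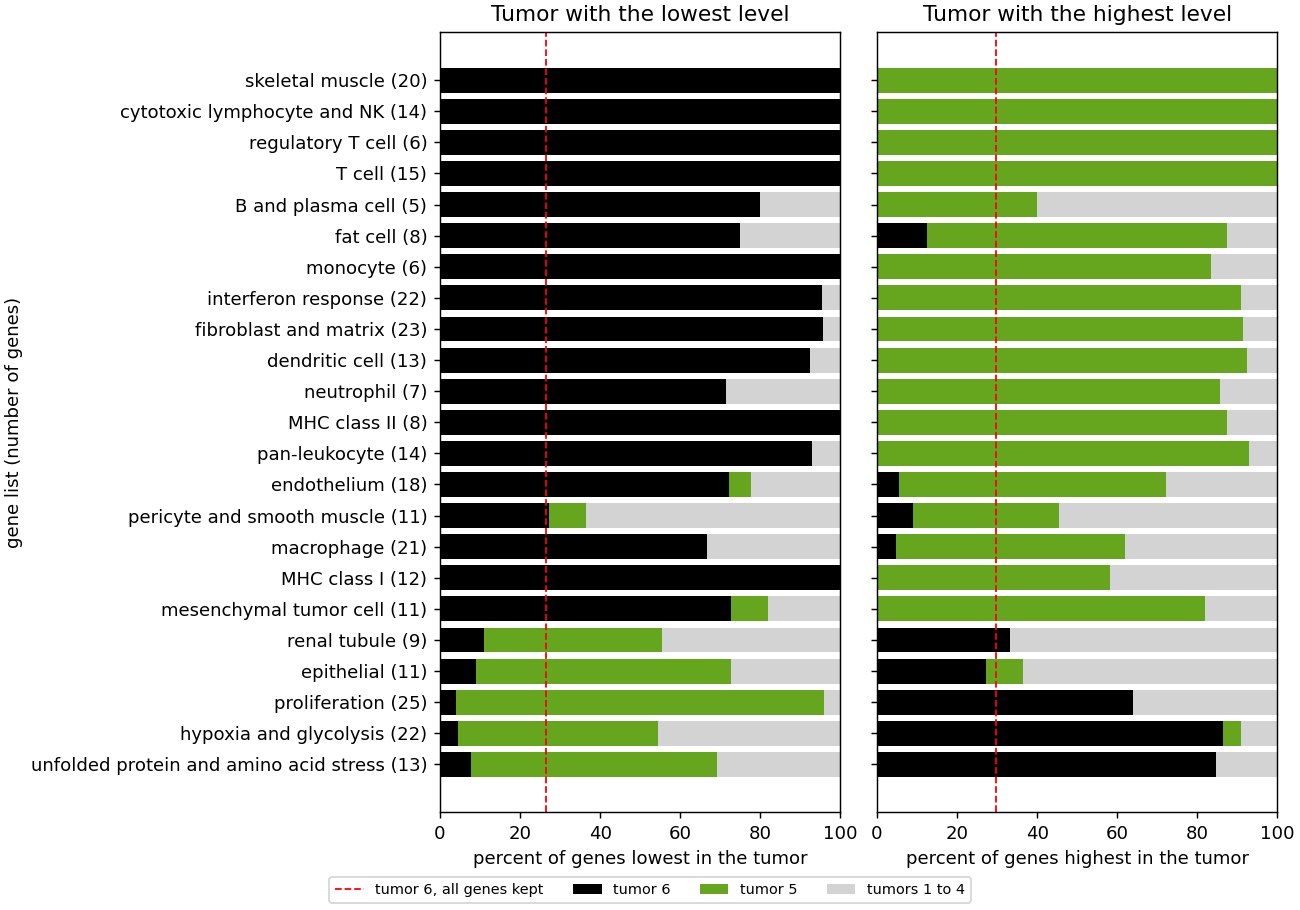
Percent of the genes in each list (vertical axis, number of genes in parentheses) whose lowest (left) or highest (right) value was in tumor 6, tumor 5 or tumors 1 to 4, with the share of tumor 6 over all genes as a dashed line. Tumor 6 fills the whole bar on the left for MHC, monocyte, T cell, cytotoxic, regulatory T cell and skeletal muscle genes, and the largest part on the right for hypoxia and glycolysis and for stress genes.

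Most genes differed little between the tumors. The median SD over the 14124 genes was 0.11 log2, the lower quartile 0.070, the upper quartile 0.20 and the 95th percentile 0.56. Counting error alone gave a median SD of 0.035, so that the observed SD was in the median 2.90 times as large, and 531 genes (3.76%) had an SD below their counting error. An SD of at least 1, called variable here, was reached by 122 genes (0.864%), and an SD of at most 0.1, called steady here, by 6384 (45.2%). Without tumor 6 the variable genes numbered 13 (0.092%) and the steady genes 7124 (50.4%).

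Of the 122 variable genes, 119 were the lowest in tumor 6 and 110 the highest in tumor 5, and 0 were the highest in tumor 6. Over all genes these shares were 26.4%, 25.5% and 29.7%. The 20 of largest SD among those reported were all the lowest in tumor 6, and 10 of them were in the muscle list. They had SDs between 2.32 and 3.33 log2, and together held only 0.024% of the counts. Besides Acta1, Ckm and the myosins Myh1, Myh2 and Myh4, they include the thin filament genes Tnnc2 and Tnnt3, Xirp2, Mybph, Mybpc1, Csrp3, Tcap, Pdlim3, Trdn, Atp2a1, Myl1, Pvalb, Klhl40 and Apobec2, all known from striated muscle. Tumor 6 had 0 reads of Tnnc2 and 0 of Mybph, whose SDs then depend on the 0.5 reads that were added before the logarithm. Tumor 5 had 193 and 146.

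Retnla was the member of these 20 that is no muscle gene. It encodes a secreted protein of alternatively activated macrophages and of fat. It had 434, 98, 60, 168, 349 and 1 reads in tumors 1 to 6. The highest value was in tumor 1, as for Jchain. Of the 122 variable genes 11 kept an SD of at least 1 without tumor 6: Myh4, Retnla, Jchain, Ido1, Igkc, Ighv3-8, A2m, Sypl2, Lgi2, Hmcn1 and Dpp6. Igkc and Ighv3-8 encode parts of antibodies, like Jchain.

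Steady genes were found at high as well as middling levels. Among the 6670 genes with a mean log2 CPM of at least 5, Lgmn had the smallest SD, 0.0099 log2. It encodes legumain, a lysosomal protease, and it was at 697, 699, 695, 686, 692 and 697 CPM in tumors 1 to 6. Lgmn was thus steady although another lysosomal gene, Psap, was not. The next were Tmem9b at 41.7 to 42.6 CPM, Ppp2cb, a catalytic subunit of protein phosphatase 2A, at 51.6 to 52.6 CPM, and Trappc11, a vesicle tethering factor, at 52.4 to 53.8 CPM. Of the 20 steadiest genes reported, 14 had an SD below their counting error, so that their order among themselves has no meaning. Ptbp1, a splicing regulator, Ywhag, a 14-3-3 protein, Uqcr10, a subunit of respiratory complex III, and Rpl31, a ribosomal protein, were also among them.

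Genes of large complexes had small spreads. The median SD was 0.050 log2 over 36 proteasome genes, 0.055 over 32 splicing factors of the SR and hnRNP families, 0.056 over 82 nuclear genes of the respiratory chain and ATP synthase, and 0.064 over 82 cytosolic ribosomal protein genes. An SD of at most 0.1 was found in 32, 28, 71 and 71 of them, against 45.2% of all genes. Cox6a2, the muscle form of a cytochrome c oxidase subunit, had the largest SD of the respiratory genes, 0.86 log2. The largest SDs of the proteasome, splicing and ribosomal lists were 0.44, 0.20 and 0.30 log2. Genes of high level have less counting error, and the part of that in these counts was not tested.

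Commonly used reference genes were not all steady. Of 17, 11 had an SD of at most 0.1, where 45.2% of all genes had one. Eef2, the elongation factor, kept to 2021 to 2165 CPM (SD 0.035 log2, and 0.023 without tumor 6), Hprt, a purine salvage enzyme, to 88.7 to 96.0 CPM (SD 0.038) and Rplp0, a ribosomal stalk protein, to 304 to 335 CPM (SD 0.053). B2m was the least steady of them at 0.27, with 1743 CPM in tumor 6 and 2836 CPM in tumor 5, the same low tumor as for the other class I genes. Actb, which is rich in leukocytes and stromal cells, had an SD of 0.18 and the same 2 tumors at its ends. Gapdh had an SD of 0.20, and 0.061 without tumor 6.

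**Figure D5:**
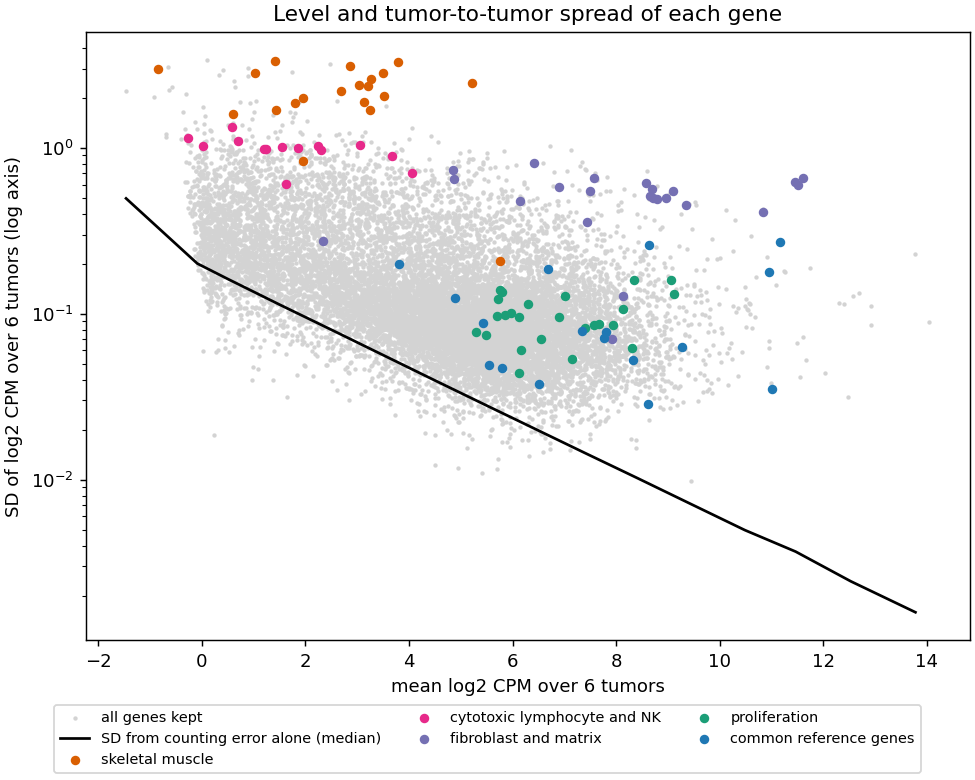
Standard deviation of log2 CPM over the 6 tumors (vertical log axis) against mean log2 CPM (horizontal axis) for the 14124 genes, with 5 lists in color and the counting error as a line. Skeletal muscle genes lie at the top, fibroblast and matrix genes above most genes of their level, and proliferation and reference genes mostly in the lower part of the cloud.

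Single genes were compared across the tumors as 6 pairs, with members from lists chosen with earlier results of these data known. Tumors 5 and 6 were at the 2 ends for 33.3% of all genes, and how often other pairs reach a high r was not tested. Tests were two-sided exact permutation tests over all 720 pairings, adjusted over the 6 pairs by the method of Benjamini and Hochberg. Col1a1 with Acta2 gave a Pearson r of 0.97 (exact p = 0.00139, adjusted 0.00833) and a Spearman rho of 1.0 (exact p = 0.00278, adjusted 0.0167), and r was 0.94 without tumors 5 and 6. These 2 genes of activated fibroblasts ordered the tumors in the same way.

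Cd8a was compared with 3 genes. With Foxp3, r was 0.97 (exact p = 0.00694, adjusted 0.0125) and rho 0.89 (exact p = 0.0333, adjusted 0.0667). With H2-Ab1, the beta chain of I-A, r was 0.96 (exact p = 0.00556, adjusted 0.0125) and rho 0.83 (exact p = 0.0583, adjusted 0.07). With Cxcl9, r was 0.93 (exact p = 0.00833, adjusted 0.0125) and rho 0.83 (exact p = 0.0583, adjusted 0.07). The r values passed the threshold of 0.05 and the rank correlations did not. Without tumors 5 and 6, r was lower in each, at 0.58, 0.84 and 0.76 over the other 4 tumors, which are too few to test. Leaving out tumor 3, 5 or 6 alone raised the adjusted p of the 4 pairs that passed to between 0.05 and 0.1, while r stayed at 0.86 or above.

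The remaining pairs did not pass. Acta1 with Adipoq gave r = 0.65 (exact p = 0.114, adjusted 0.137) and rho = 0.94 (exact p = 0.0167, adjusted 0.05), with r = 0.86 without tumors 5 and 6. Slc2a1 with Mki67 gave r = 0.13 (exact p = 0.725, adjusted 0.725) and rho = 0.029 (exact p = 1.0, adjusted 1.0). Without tumors 5 and 6, r of this pair was -0.90 over the other 4 tumors, which is too few to test.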

How the data were processed

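RNA of 6 whole subcutaneous tumors, extracted with RNeasy and made into TruSeq libraries per the labels' protocols, was sequenced. Tools listed in the submitters' processing notes are TopHat 1.4.1, CASAVA 1.8.2, limma and HTSeq, with mm9 as the build. Their settings, the strand and the treatment of reads with several matches are not given in the sources used here. The deposited values are log2 CPM that the authors computed after adding 0.5 reads, with a library size that is not the plain total of reads. Whole reads were recovered for 100.0% of the values of the 6 tumors, to within 0.001 reads, and gave the depth and the counting error. The table holds genes with at least 1 CPM in at least 2 of the 12 tumors. No count model was run.

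Genes were kept when 3 or more tumors reached a log2 CPM of 0. Symbols and exon lengths came from GENCODE M21, which matched 14011 of 14496 genes. Lists and families (31 and 6) were described by counts, medians and a score per tumor. No contrast exists within 1 group, so tests were limited to 6 gene pairs. Named genes were the 25 of highest CPM, the 15 of highest CPM per kb, the 20 of largest and of smallest SD, the 3 highest and the 1 most variable of each list, and the pairs, in each case passing over genes that are not reported here. Other genes, and the printed promoters, were picked with their values in view. The members and lists were chosen with earlier results of these data known.

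Python 3.11.15, pandas 2.3.3, numpy 2.4.6, scipy 1.17.1, R 4.3.3 and limma 3.58.1 were used, and the spread measures were tested on simulated data. Alternatives changed the filter, the scaling, the measure of spread and the tumors included.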

Additional observations from a re-analysis of the deposited data

Results flagged for a closer look

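A tumor was marked for a gene or list score when its gap to the nearest other tumor, as a share of the range of all 6, passed Dixon's 95% critical value. Chance marks about 1 in 20 such groups. Of 199 named genes 26 were marked, and 24 of these marks were in tumor 6, 2 in tumor 5 and 0 in tumors 1 to 4. Many of these genes were named for their large spread.

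Tumor 6 was the low tumor for the muscle genes Myh2 (share 0.707), Myh4 (0.724), Xirp2 (0.758), Myh1 (0.69), Mybph (0.778), Csrp3 (0.783), Tnnc2 (0.706), Mybpc1 (0.761), Ckm (0.739), Pvalb (0.707), Trdn (0.78), Tcap (0.736), Tnnt3 (0.735), Pdlim3 (0.74), Acta1 (0.751), Myl1 (0.74), Atp2a1 (0.66), Klhl40 (0.749) and Apobec2 (0.753). The score of the skeletal muscle list, the only one marked of 36 lists, gave 0.685. Tumor 6 was also the low tumor for Retnla (0.648) and Clec9a (0.636).

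Tumor 6 was the high tumor for Atf4 (0.662), Slc2a1 (0.671) and Gapdh (0.711). Tumor 5 was the low tumor for Selenop (0.649) and the high tumor for Isg15 (0.651).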

How the results depend on the processing

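No result was labelled as reversed under any alternative run, but this label did not cover every change of sign. The r of Slc2a1 with Mki67, a pair that had not passed, was 0.13 and changed sign with 1 tumor left out. The number of genes with an SD of at least 1, 122 in the report, was 62 with the stricter filter (5 or more tumors at a log2 CPM of 1), 72 after quantile normalization, 32 with the scaled median absolute deviation, and 13 (without tumor 6) to 178 with 1 tumor left out. Scalings moved no tumor's median by more than 0.0259 log2. This shift is larger than the SDs of the 20 steadiest genes reported, which were 0.0099 to 0.0175 log2. Of the 199 named genes, the SDs of 35 moved after quantile normalization, 12 after median centring and 3 after trimmed-mean scaling. With the scaled median absolute deviation, 76 moved. Without the filter, 8 list scores moved by more than their SD: epithelial 4.49, macrophage 6.88, B and plasma cell 0.74, Schwann cell 2.36, immediate early 4.75, ribosomal 6.77, respiratory 5.97 and histone 1.72. With the stricter filter, 12 did: epithelial 5.52, renal tubule 5.26, hypoxia 7.28, pericyte 4.65, fat cell 3.93, Schwann cell 3.76, immediate early 5.31, ribosomal 7.01, respiratory 6.33, SR and hnRNP 7.17, collagen 6.99 and histone 3.64, and the median SDs of the B and plasma cell and histone lists were 0.30 and 0.13. These settings change which genes enter a score. With the scaled median absolute deviation, median spreads were 0.21 for pan-leukocyte, 0.54 for T cell, 0.45 for cytotoxic, 0.52 for regulatory T cell, 0.32 for interferon, 0.81 for muscle genes and 0.094 for Xist.

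With 1 tumor left out, median SDs ranged from 0.45 to 0.81 for B and plasma cell, 0.29 to 0.52 for dendritic cell, 0.48 to 0.97 for T cell, 0.62 to 1.12 for cytotoxic, 0.58 to 0.99 for regulatory T cell, 0.25 to 0.43 for class II and 0.80 to 2.54 for muscle genes. The r of Cd8a ranged from 0.86 to 0.98 with Cxcl9, 0.88 to 0.98 with Foxp3 and 0.93 to 0.98 with H2-Ab1, and that of Col1a1 with Acta2 from 0.95 to 0.99. For the pairs that had not passed, r ranged from 0.57 to 0.92 (Acta1 with Adipoq) and from -0.34 to 0.46 (Slc2a1 with Mki67). The SDs of 52 of 199 named genes moved without tumor 6 and of 19 without tumor 5. No paired analysis was possible because the tumors form 1 group with no contrast. At about 0.0157 to 0.0187 CPM per read, genes with few reads, such as the muscle genes in tumor 6, have log2 values that depend on the 0.5 reads added.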
